A study of Mus musculus with 3 samples.

Results

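Collagens, laminins and integrins, the main fibrous and sheet-forming proteins of the extracellular matrix and the receptors that bind them, were described in mouse kidney tubule cells given vitamin D compounds. Members were taken by gene name on the array: every alpha chain of a collagen, every alpha, beta or gamma chain of a laminin, and every alpha or beta chain of an integrin. This gave 81 genes, read from 185 probes, and 80 of them had a probe without an outlier mark, of 24417 genes with a current symbol on the array. They comprised 11 fibrillar collagens, 19 basement membrane genes, 25 other collagens and 26 integrins, of which 18 were alpha and 8 beta chains. Each gene was read from its brightest probe by mean signal over the 3 arrays. The rule itself uses gene names and signal, not differences between groups.

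The cells were mpkDCT, a mouse kidney line that stems from the distal convoluted tubule, and their mRNA was read on arrays. All 3 groups carried a CRISPR-Cas9 knockout of Cyp27b1, and no group of unedited cells is analysed here. Cells were kept for 24 h in medium without phenol red that held 2% charcoal-stripped FBS, a serum depleted of steroid hormones, and then received vehicle, calcitriol (1,25-dihydroxyvitamin D3) or calcidiol (25-hydroxyvitamin D3) for 24 h, each hormone at 1e-07 M. Each group was measured on 1 array of a single slide, so no difference has a replicate check, no test was possible and no p-value is given. Values after ± are the scanner software's own error per spot, carried over to the log2 difference, and hold no spread between cultures. Cyp27b1 encodes the 1α-hydroxylase, which turns calcidiol into calcitriol, so the comparisons ask what matrix and integrin genes do with either compound when that gene is targeted. The sources used here do not say whether the cells were 1 edited clone.

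Collagens are trimers of alpha chains. Fibrillar types pack into the fibrils of connective tissue, whereas type IV forms the network of basement membranes, the sheets on which kidney tubule cells rest. Laminins are cross-shaped trimers of an alpha, a beta and a gamma chain that polymerise on the cell surface and start basement membrane assembly. Integrins are heterodimers of an alpha and a beta chain that link collagens, laminins and other ligands outside the cell to the actin or keratin cytoskeleton inside it.

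As background to all values, 49.7% to 50.98% of spots per array were well above background, and the 75th percentile of signal, to which each array was scaled, was 371.1, 379.8 and 400.8 for vehicle, calcitriol and calcidiol. The Cyp27b1 probe was detected, that is well above background, on 0 of 3 arrays. Its place relative to the edit is not given, so it does not check the knockout. Cyp24a1, the hormone-degrading 24-hydroxylase, had processed signals of 2.68, 5443 and 288 on the vehicle, calcitriol and calcidiol arrays, and was not well above background with vehicle. Of 8 markers of kidney epithelium, 2 were detected on all arrays, among them Pax8, and Epcam, Cdh1, Krt8, Krt18, Krt19 and Cldn4 were detected on none. Of 8 markers of the distal convoluted tubule, Wnk1 was detected on all arrays, and Slc12a3, which defines that segment, was detected on none, as were Trpm6, Calb1, Klhl3, Emx1 and Slc8a1.

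Promoters are shown for the members that were at least 2-fold lower with calcitriol, since the vitamin D receptor binds DNA. Of the 6 such members, 4 were among the 58 of 81 members matched by symbol in a table of RefSeq promoters on GRCm38.p6, and Col1a1 and Itgb3 were not. Each sequence is the 250 bases before the annotated start, read in the direction of the gene. Capitals mark half-sites of the receptor's response element (AGGTCA, its variant AGTTCA, the variant GGGTCA and also the variant GGTTCA) and GC boxes (GGGCGG), on either strand. No capitalised matches overlap.
Col5a3: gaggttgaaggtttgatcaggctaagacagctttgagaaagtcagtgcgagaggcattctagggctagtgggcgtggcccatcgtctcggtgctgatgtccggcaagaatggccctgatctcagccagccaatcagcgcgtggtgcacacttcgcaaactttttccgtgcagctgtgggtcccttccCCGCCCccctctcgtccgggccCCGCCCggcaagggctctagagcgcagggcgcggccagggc
Col6a2: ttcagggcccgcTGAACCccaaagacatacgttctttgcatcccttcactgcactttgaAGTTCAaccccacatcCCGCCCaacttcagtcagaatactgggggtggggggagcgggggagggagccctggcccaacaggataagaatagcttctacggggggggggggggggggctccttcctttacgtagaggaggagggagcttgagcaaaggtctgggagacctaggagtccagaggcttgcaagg
Itga3: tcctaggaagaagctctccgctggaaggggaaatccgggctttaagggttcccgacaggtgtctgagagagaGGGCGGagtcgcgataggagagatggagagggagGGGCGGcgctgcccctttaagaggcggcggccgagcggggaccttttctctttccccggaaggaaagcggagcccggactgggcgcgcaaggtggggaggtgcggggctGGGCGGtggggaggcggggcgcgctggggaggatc
Lamb3: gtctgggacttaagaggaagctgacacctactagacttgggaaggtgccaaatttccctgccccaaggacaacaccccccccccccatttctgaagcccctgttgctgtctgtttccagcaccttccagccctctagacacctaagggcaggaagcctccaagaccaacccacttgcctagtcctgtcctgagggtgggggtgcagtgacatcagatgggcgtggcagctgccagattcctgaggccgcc

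These windows lie at chr9:20815068-20815317 for Col5a3, chr10:76623631-76623880 for Col6a2 and chr11:95076715-95076964 for Itga3, all on the minus strand, and at chr1:193301744-193301993 on the plus strand for Lamb3. Col6a2 held 2 half-sites and 1 GC box, Col5a3 held 2 GC boxes, Itga3 held 3 GC boxes, and Lamb3 held neither motif. A half-site was present in 38.4% of 27025 promoters of the same length and in 10 of the 27 promoters of measured members (37.0%). A GC box was present in 33.0% of all promoters and in 18 of those 27 (66.7%). The full set of promoters was not limited to genes measured here, so these shares are not of like sets. A pair of these half-sites in direct repeat with a 3-base spacer occurred in 0.0333% of promoters and in 0 of the 27. These are matches of letters and were not tested as binding sites.

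Of the 80 genes, 36 were well above background on all 3 arrays and 37 on none, with 42 detected with vehicle, 38 with calcitriol and 39 with calcidiol. Of the 24417 genes with a current symbol, 12809 were so on all 3 arrays and 10655 on none. Over these genes 13354 were detected with vehicle, 13161 with calcitriol and 13227 with calcidiol. The cells gave signal for 4 fibrillar collagens, 15 basement membrane genes, 8 other collagens and 16 integrins on at least 1 array. Among genes detected on every array were type IV collagen chains, the laminin chains Lama1, Lama5, Lamb1, Lamb2 and Lamc1, and the integrin chains Itgav, Itgb1, Itga6, Itgb5 and Itgb3. Not detected by any probe were the fibrillar chains Col1a2, Col2a1, Col3a1, Col5a2, Col11a2, Col24a1 and Col27a1 and the basement membrane genes Col15a1, Lama2, Lama4 and Lamc3. The same held for Col6a3, Col6a4, Col6a5, Col6a6, Col8a2, Col9a1, Col9a3, Col10a1, Col14a1, Col17a1, Col19a1, Col20a1, Col22a1, Col23a1, Col25a1 and Col28a1. Among integrins it held for Itga2, Itga2b, Itga4, Itga8, Itga9, Itga11, Itgad, Itgae, Itgax and Itgb2. A bound could be set for genes detected on only 1 of 2 arrays, and no member's bound reached 2-fold in any comparison.

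**Figure D1:**
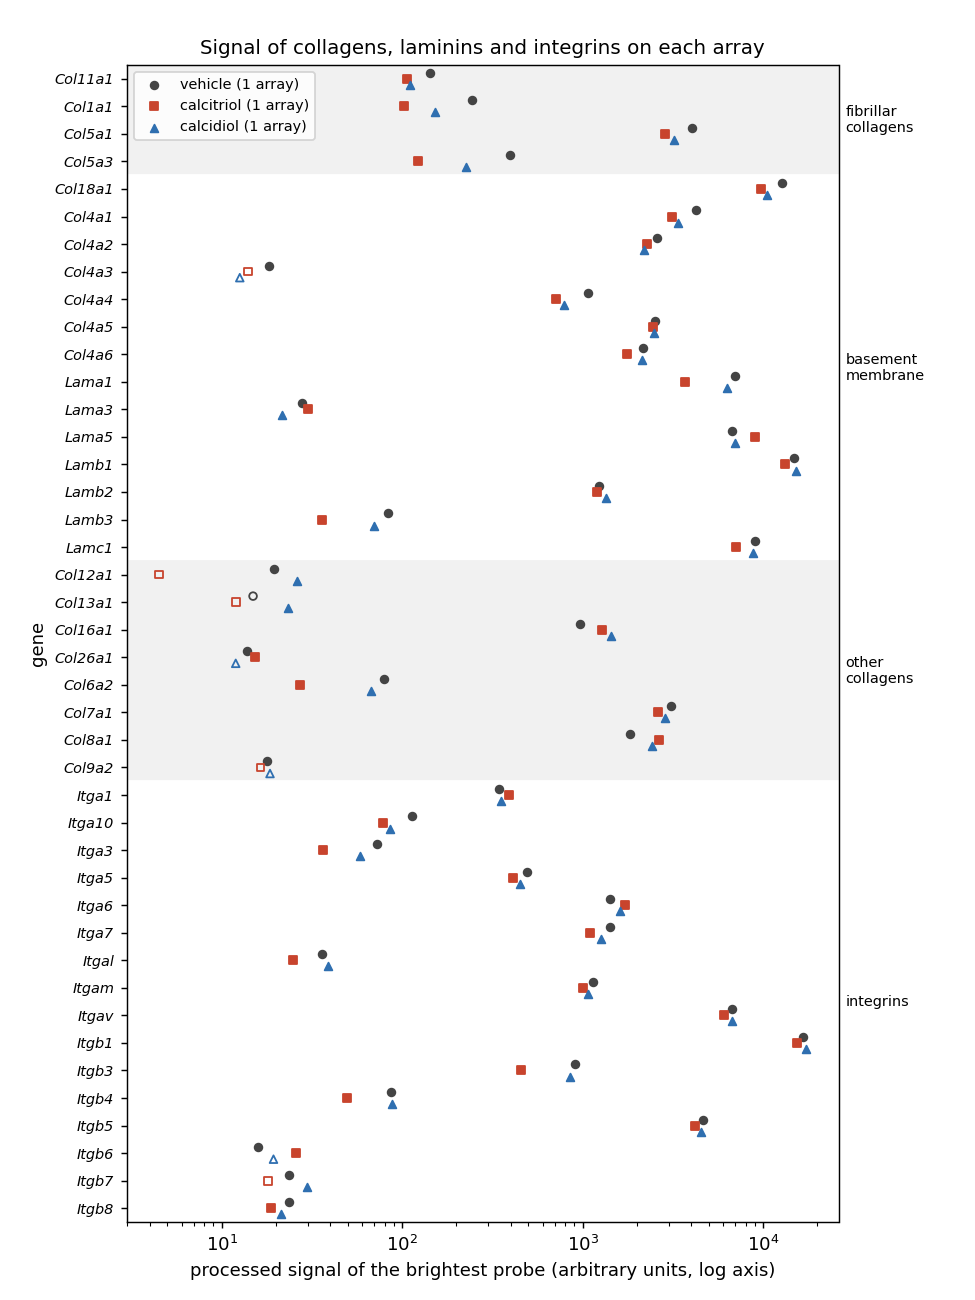
Processed signal (arbitrary units, log axis) of the brightest probe of each reported gene detected on at least 1 array, with 1 point per array and hollow points where the probe was not well above background. Calcitriol lies left of vehicle for Col5a3, Col1a1, Col6a2, Lamb3, Itga3 and Itgb3, and levels are to be compared along a line, not between genes.

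With calcitriol, 38 members could be measured, and 6 of these were at least 2-fold lower than with vehicle, namely Col5a3, Col6a2, Col1a1, Lamb3, Itga3 and Itgb3, and 0 were at least 2-fold higher. Among the 12941 genes measured in this comparison, 1.77% were at least 2-fold lower and 1.07% at least 2-fold higher. Values lay below 0 for 30 of the 38 members and for 50.4% of all genes, and the median log2 difference was -0.34 over the members and -0.0020 over all genes. The lower members were dim or of middle signal: 3 of 10 members with a mean signal below 100 were at least 2-fold lower (4.23% of all genes in that range), 3 of 7 between 100 and 1000 (2.05%), and 0 of 21 from 1000 upwards (0.617%).

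With calcidiol, 0 of 38 members were at least 2-fold lower and 0 at least 2-fold higher than with vehicle, where 0.139% of 12974 genes were lower and 0.732% higher. Values lay below 0 for 32 of the 38 members and for 55.0% of all genes, and the medians were -0.20 and -0.02. Both comparisons share the vehicle array, so a high vehicle value lowers both differences together. Set directly against calcidiol, calcitriol gave 1 of 36 members at least 2-fold lower, Col6a2, and 0 higher, against 1.18% and 0.528% of 12874 genes. Of the 36, 28 were below 0, against 47.0% of all genes, with medians of -0.09 and 0.02.

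Part of this depends on the scaling. With each array centred on its median, the median of all genes became 0.13 for calcitriol against vehicle, -0.11 for calcidiol against vehicle and 0.23 for the direct comparison. The members' median turned from -0.09 to 0.12 in the direct comparison. This centring shifts every gene of a comparison by the same amount, so the distance of the members' median from that of all genes, -0.11 here, is the same by construction. Of all genes at least 2-fold apart, the share that was higher went from 37.6% to 55.23% with calcitriol, from 84.07% to 70.0% with calcidiol, and from 30.91% to 61.72% in the direct comparison. Under this centring 4 members were at least 2-fold lower with calcitriol (Col1a1, Col5a3, Col6a2 and Lamb3) and 0 higher.

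Fibrillar collagens were measured through 4 of 11 chains, and all 4 were below vehicle with both compounds. Their median log2 difference was -0.90 with calcitriol and -0.63 with calcidiol. Col5a3 encodes a chain of type V collagen, a minor fibril component that governs how fibrils start (probe at chromosome 9, 20574592 to 20574651, mm9). Its processed signals on the vehicle, calcitriol and calcidiol arrays were 396, 123 and 227. Vehicle was the highest of the 3 and calcitriol the lowest, with calcidiol between them. The log2 difference from vehicle was -1.72 ± 0.21 with calcitriol, a 3.30-fold lower level, and -0.92 ± 0.21 with calcidiol, a 1.89-fold lower level. A second Col5a3 probe, with signals of 4.06, 2.87 and 3.72, was not detected on any array. The Col5a3 values thus rest on the brightest probe alone.

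Col1a1 encodes the major chain of type I collagen, the main fibril of connective tissue (probe at chromosome 11, 94814188 to 94814247). Its signals were 243, 103 and 152, in the same order as for Col5a3. Calcitriol differed from vehicle by -1.28 ± 0.21 and calcidiol by -0.78 ± 0.21. Another pair of Col1a1 probes, called A and B here, was printed at 10 spots on each array, which allows the spread between spots to be seen. For probe A (chromosome 11, 94813075 to 94813134), spots ranged from 173 to 217 with vehicle, from 78.1 to 114 with calcitriol, and from 118 to 139.6 over the 8 unmarked spots with calcidiol. None of these ranges overlap. For probe B (94813115 to 94813174), spots ranged from 147 to 215 with vehicle, from 33.3 to 119 with calcitriol and from 121 to 169 with calcidiol, so calcitriol lay below both other arrays, and calcidiol overlapped vehicle. The coefficient of variation between spots of probe B was 12.5% with vehicle, 32.8% with calcitriol and 9.91% with calcidiol. Spots of 1 array share a culture and show technical spread only.

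**Figure D2:**
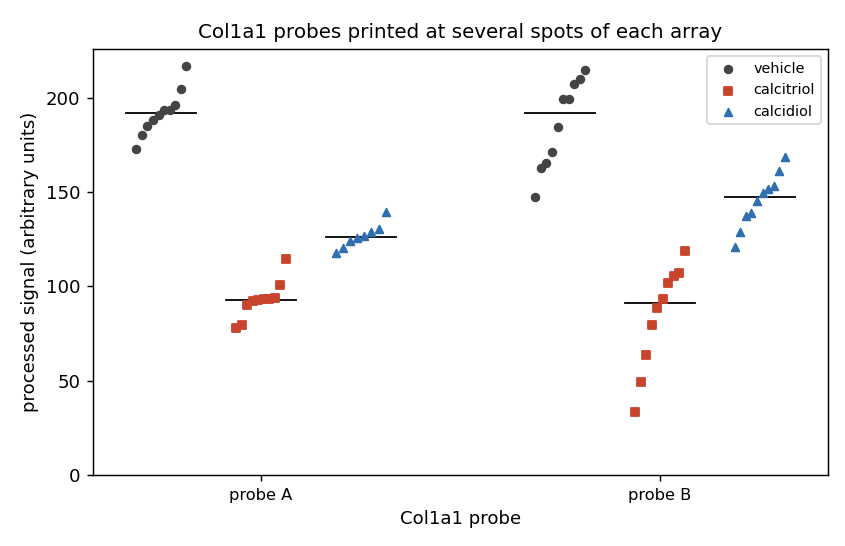
Processed signal (arbitrary units) at each spot of the repeated Col1a1 probes A and B, with 1 point per spot and a line at the median. All calcitriol spots lie below all vehicle spots for both probes, and the calcitriol spots of probe B run down to 33.3.

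Col1a1 pairs with Col1a2 in type I collagen, and Col1a2 was not detected, so the pair cannot be compared. The remaining fibrillar chains differed less. Col5a1, the chain common to type V trimers, had signals of 4022, 2849 and 3226, with differences of -0.53 ± 0.20 for calcitriol and -0.43 ± 0.20 for calcidiol. Both hormone arrays were below vehicle and differed from each other by -0.10 ± 0.20. Col11a1, a chain of type XI collagen known from cartilage, had signals of 143.5, 106.6 and 110.8 and differences of -0.46 and -0.48. Here too vehicle was highest, and the hormone arrays lay 0.02 ± 0.22 apart.

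Type I and III collagens are known as fibroblast products, and markers of other cell types were therefore read beside these values. Of 9 fibroblast or mesenchyme markers, 2 were detected, Col1a1 itself and Dcn, which encodes the fibril-binding proteoglycan decorin. Pdgfra, Pdgfrb, Lum, Thy1, Col1a2, Col3a1 and Tcf21 were detected on none of the arrays. Dcn had signals of 163, 32.4 and 89.6, and its differences were -2.37 ± 0.25 with calcitriol and -0.98 ± 0.22 with calcidiol. The summed signal of the 9 markers was 436 with vehicle, 164 with calcitriol and 279 with calcidiol. Col1a1 itself supplied 243, 103 and 152 of these sums, and Dcn most of the rest. The order of the sums is therefore no reading apart from Col1a1 and Dcn. In bulk RNA, fewer cells of a type and less RNA per cell cannot be told apart, and the part of other cells in these differences was not tested. For 6 endothelial markers the summed signals were 139.7, 85.3 and 130.3, with Kdr detected and Pecam1, Cdh5, Tek, Emcn and Tie1 not.

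Basement membrane genes were measured through 14 of 19 members, of which 12 were below vehicle with calcitriol and 13 with calcidiol. Their medians were -0.36 and -0.21, and 1, Lamb3, was at least 2-fold lower with calcitriol. Among laminin alpha chains, which carry the cell-binding domains, Lama1 and Lama5 went opposite ways with calcitriol. Lama1, the alpha chain of the laminin of early kidney tubules, had signals of 6983, 3706 and 6306, so calcitriol stood apart from the other arrays. It was -0.95 ± 0.20 on the log2 scale against vehicle, just short of 2-fold, whereas calcidiol was -0.26 ± 0.20, or 0.11 as the mean over its probes. Lama5, the alpha chain that prevails in mature tubule basement membranes, had signals of 6705, 9068 and 7013. Calcitriol was the high array, at 0.40 ± 0.20, and calcidiol was near vehicle, at -0.05 ± 0.20. Both alpha chains assemble with Lamb1 and Lamc1.

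The shared laminin chains differed by less than 2-fold. Lamb1, a beta chain that assembles with either alpha chain, had signals of 14892, 13272 and 15147 and differences of -0.20 with calcitriol and -0.09 with calcidiol. Lamb2, the beta chain paired with Lama5 in the glomerulus, had signals of 1231, 1195 and 1343 and differences of -0.08 and 0.01. By these probes both chains stayed within about the scanner error of vehicle on both hormone arrays. Other detected Lamb1 probes read lower with calcitriol, at -0.52 and -0.41, and gave -0.20 and -0.17 with calcidiol. Lamc1, the gamma chain of most laminins, had signals of 9038, 7038 and 8780.2 and differences of -0.39 ± 0.20 and -0.15 ± 0.20. Its probes disagreed on calcitriol, since another bright probe gave 0.19 and a further one -0.87, and the first of these lies in the row or column next to the array edge.

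Lama3 and Lamb3 are chains of an anchoring laminin of epithelia such as skin. Lamb3 (probe at chromosome 1, 195170009 to 195170068) had signals of 84.0, 36.2 and 70.2, with calcitriol the low array. Its differences were -1.25 ± 0.24 with calcitriol and -0.37 ± 0.22 with calcidiol. The brightest Lamb3 probe lies 5 rows or columns from the array edge, and another detected probe gave -0.44 with calcitriol, -0.63 with calcidiol and 0.19 between the compounds, so its 2-fold call rests on 1 probe. Lama3 had signals of 27.9, 30.0 and 21.7, with a difference of 0.07 ± 0.28 with calcitriol and -0.48 ± 0.35 with calcidiol, and did not follow Lamb3 on the calcitriol array.

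Type IV collagen chains were below vehicle with both compounds in all 5 cases measured. Their medians were -0.32 with calcitriol and -0.37 with calcidiol, with the difference between the compounds at a median of -0.03. Col4a1, which forms the common type IV trimer with Col4a2, had signals of 4258, 3122 and 3356 and differences of -0.48 ± 0.20 and -0.45 ± 0.20. Col4a2 had signals of 2599, 2271 and 2178 and differences of -0.23 ± 0.20 and -0.37 ± 0.20. For both chains vehicle was the highest array. Col4a4, which forms a further type IV trimer with Col4a3 and Col4a5, had signals of 1067, 709 and 785. Its differences were -0.62 ± 0.20 and -0.55 ± 0.20, with a second probe at -0.65 and -0.54. Col4a4 had the lowest calcidiol difference among basement membrane genes. Its partner Col4a5 had signals of 2519, 2453 and 2484 and differences of -0.07 and -0.13, all 3 arrays being close. A second Col4a5 probe, 4 rows or columns from the edge, read 0.89 with calcidiol, so the gene's value there is uncertain.

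The partner Col4a3 was detected with vehicle only, with signals of 18.3, 14.0 and 12.6, and was at least 1.34-fold lower with calcitriol and at least 1.11-fold lower with calcidiol. Col4a6, which pairs with Col4a5 in another trimer, had signals of 2148, 1755 and 2129.7 and differences of -0.32 and -0.12. Calcitriol was the low array for Col4a6. Col18a1, a heparan sulfate collagen of basement membranes and the source of endostatin, had signals of 12691, 9785 and 10519 and differences of -0.41 ± 0.20 and -0.38 ± 0.20. Its hormone arrays lay side by side, -0.03 apart.

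**Figure D3:**
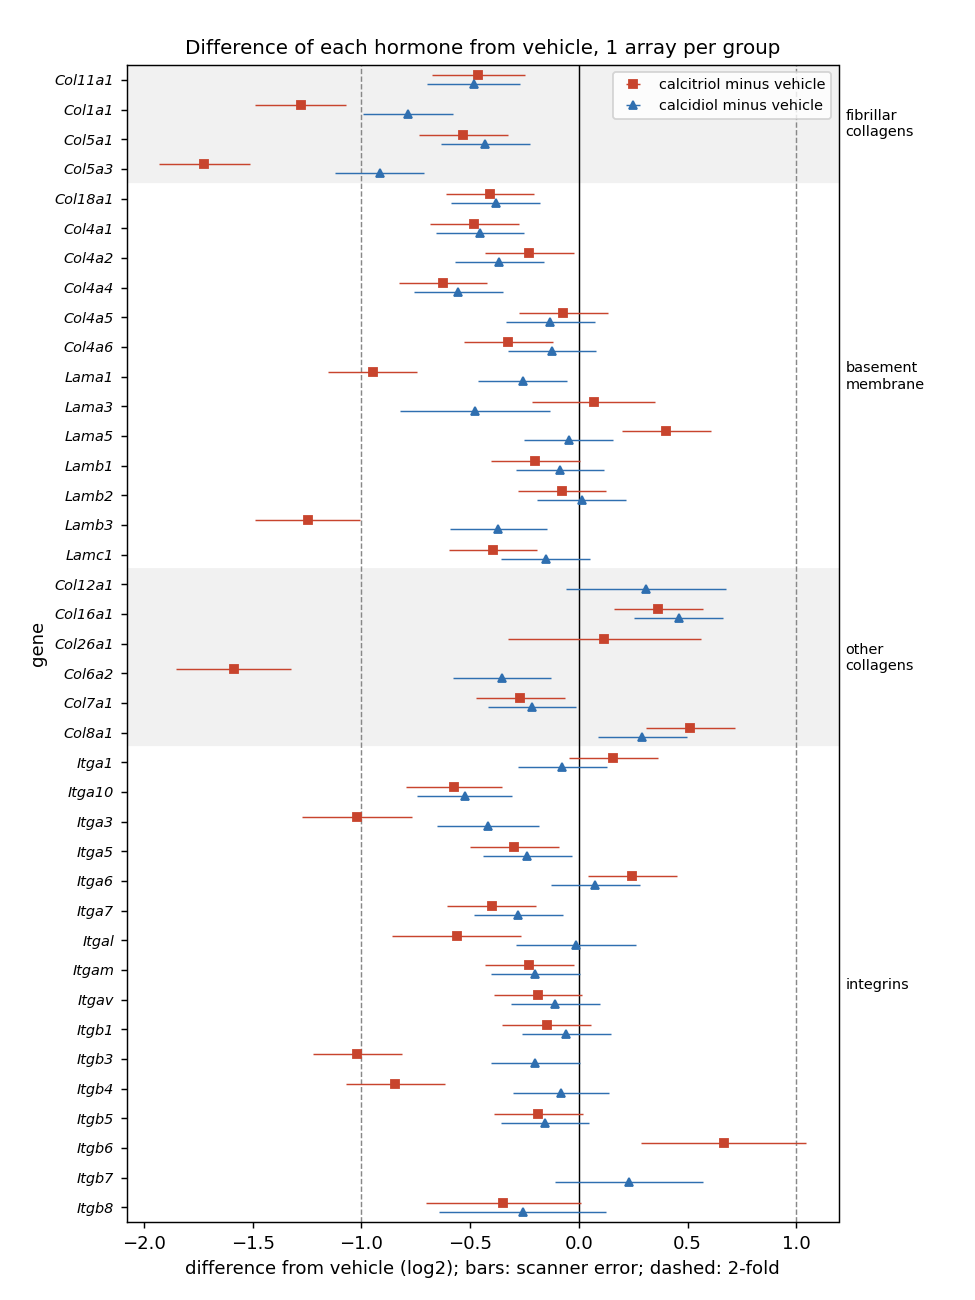
Log2 difference of calcitriol and calcidiol from vehicle for each measured member reported here, with bars for the scanner error and dashed lines at 2-fold. Most points lie left of 0 with both compounds, and the 6 points beyond the left dashed line all belong to calcitriol.

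Other collagens were mostly undetected: 5 of 25 could be compared between calcitriol and vehicle, with a median of 0.12, and 5 between calcidiol and vehicle, with a median of 0.29. With outlier spots kept these medians turned to -0.49 and -0.30. Col6a2, a chain of the microfibril-forming type VI collagen (probe at chromosome 10, 76058931 to 76058990), had signals of 79.5, 27.1 and 67.2. Calcitriol was low and calcidiol was near vehicle. It differed by -1.59 ± 0.26 with calcitriol, a 3.00-fold lower level, by -0.35 ± 0.23 with calcidiol, and by -1.23 ± 0.27 between the compounds. That last difference shrank to -0.43 under the normexp background correction. A second Col6a2 probe was detected with vehicle only, with signals of 27.6, 5.78 and 16.5. Its partner Col6a1 was read by 1 probe that carried an outlier mark for its background with vehicle and so has no value in the counts. With the mark set aside its signals were 8004, 5007 and 6738, which gives -0.71 with calcitriol and -0.36 with calcidiol.

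Col8a1 and Col16a1 were above vehicle with both compounds. Col8a1, a short-chain network collagen, had signals of 1823, 2661 and 2409 and differences of 0.51 ± 0.20 and 0.29 ± 0.20. Col16a1, a collagen that lies on the surface of fibrils, had signals of 969, 1279 and 1439.8 and differences of 0.37 ± 0.20 and 0.46 ± 0.20, its calcidiol value being the highest of any member in that comparison. Other Col16a1 probes were not detected on any array, so its values rest on the brightest probe alone. For Col8a1 and Col16a1 vehicle was the lowest array. Col7a1, which forms anchoring fibrils under epithelia, had signals of 3072, 2609 and 2859.5 and differences of -0.27 and -0.21.

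The dimmest collagens had values close to the lowest signal well above background, which was 13.36, 13.82 and 17.85 on the vehicle, calcitriol and calcidiol arrays. Col12a1, a collagen that decorates fibrils, had signals of 19.6, 4.51 and 26.2 and was at least 1.45-fold lower with calcitriol than with vehicle and at least 1.8-fold lower than with calcidiol. Col13a1, a transmembrane collagen, was detected with calcidiol only, at 14.9, 12.0 and 23.5. Col26a1 had signals of 13.9, 15.4 and 12.0 and differed by 0.12 ± 0.44 with calcitriol. Col9a2, known from cartilage, was detected with vehicle only, at 17.9, 16.5 and 18.6.

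Integrins were measured through 15 of 26 chains in each hormone comparison, and 12 were below vehicle with calcitriol and 13 with calcidiol. Their medians were -0.30 and -0.15, and 2, Itga3 and Itgb3, were at least 2-fold lower with calcitriol. Itga3 encodes the alpha chain of the laminin receptor α3β1 of kidney epithelium and podocytes (probe at chromosome 11, 94915485 to 94917062). Its signals were 72.7, 36.7 and 58.7, with calcitriol the lowest. The differences were -1.02 ± 0.25 with calcitriol and -0.42 ± 0.23 with calcidiol. The partner Itgb1, shared by most matrix-binding integrins, had signals of 16677, 15412 and 17314 and differences of -0.15 ± 0.20 and -0.06 ± 0.20, so Itgb1 did not move beyond scanner error. The Itga3 and Col1a1 probes lie 101 kb apart on chromosome 11.

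Itgb3 pairs with Itgav in the receptor αvβ3 for osteopontin, vitronectin and fibrinogen (Itgb3 probe at chromosome 11, 104531672 to 104531731). Its signals were 907, 458 and 852, and the calcitriol array stood apart from the others. The differences were -1.02 ± 0.20 with calcitriol, -0.20 ± 0.20 with calcidiol and -0.82 ± 0.20 between the compounds. Itgav had signals of 6725, 6043 and 6736 and differences of -0.19 and -0.11. Itgb5, its other beta partner for vitronectin, had signals of 4655, 4185 and 4515 and differences of -0.19 and -0.15. By their brightest probes Itgav and Itgb5 thus lay within the scanner error of vehicle on both hormone arrays, and Itgb3 did not on the calcitriol array. A dim second Itgav probe gave 0.21 with calcitriol.

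Itgb6, the partner that binds latent TGF-β, had signals of 16.0, 25.9 and 19.4, the last not well above background. Its difference of 0.67 ± 0.38 was the highest of any member with calcitriol, from a signal near the detection limit. Itgb8, a further Itgav partner, had signals of 23.5, 18.9 and 21.2 and differences of -0.35 ± 0.36 and -0.26 ± 0.38. Both values are about the size of their scanner error. A second Itgb8 probe was detected with vehicle only.

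Itgb4, the hemidesmosome chain that links this anchoring laminin to keratins, had signals of 86.6, 49.4 and 88.3. The calcitriol array was low, at -0.84 ± 0.23, and calcidiol was level with vehicle, at -0.08 ± 0.22. Its only alpha partner, Itga6, went the other way with calcitriol, with signals of 1418, 1722 and 1614 and differences of 0.25 ± 0.20 and 0.08 ± 0.20. Itga6 also pairs with Itgb1. The laminin chain Lamb3 and the receptor chains Itga3 and Itgb4 were thus each below vehicle with calcitriol, whereas Lama3 and Itga6 were not.

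Among the other partners of Itgb1, collagen receptors and laminin receptors differed by less than 2-fold. Itga1, a receptor chain for type IV collagen, had signals of 343, 392 and 351 and differences of 0.16 and -0.08. Dimmer Itga1 probes disagreed in direction, at 0.85, -0.17 and -0.03 with calcitriol and 0.60, -0.17 and 0.12 with calcidiol. Itga10, a collagen receptor chain known from cartilage, had signals of 113, 78.1 and 85.2 and differences of -0.57 ± 0.22 and -0.52 ± 0.22, its calcidiol value being the lowest of the integrins. By the brightest probes, vehicle was highest for Itga10 and calcitriol for Itga1. Itga5, the fibronectin receptor chain, had signals of 492, 410.3 and 451 and differences of -0.30 and -0.24. Itga7, a laminin receptor chain known from muscle, had signals of 1425, 1104 and 1269 and differences of -0.40 ± 0.20 and -0.28 ± 0.20. For both, vehicle was the highest array.

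Chains known from leukocytes were read as well. Itgam had signals of 1144, 999.5 and 1075 and differences of -0.23 and -0.20, although Itgb2, the beta chain it needs to reach the cell surface, was not detected. A second Itgam probe, with signals of 4.53, 5.49 and 3.86, was not detected on any array, so the Itgam values rest on the brightest probe alone. Itgal, another Itgb2 partner, had signals of 36.1, 25.0 and 38.6 and differences of -0.56 ± 0.30 and -0.01 ± 0.28. Itgb7 had signals of 23.6, 18.1 and 29.9, the calcitriol value not well above background, and was 0.23 ± 0.34 with calcidiol. Of 9 leukocyte markers on the array, 6 were detected, namely Ptprc, Cd68, Cd14, Itgam, Itgal and Cd3e, and Adgre1 and Itgb2 were among those that were not. For Ptprc, Itgal and Cd3e no other probe could be compared between arrays, so these too rest on the brightest probe. The summed signals of the 9 markers, which include the Itgam value from its brightest probe, were nearly level over the arrays, at 2609, 2525 and 2606.

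Probes other than the brightest gave a check on some members. In the calcitriol comparison 17 further probes of 11 genes were measured and 13 had the direction of the brightest probe. In the calcidiol comparison 12 of 18 did, over 12 genes, and between the compounds 10 of 17 did, over 11 genes. The median absolute gap to the brightest probe was 0.32 with calcitriol, 0.16 with calcidiol and 0.24 between the compounds, on the log2 scale. The largest gaps were 0.81 for Lamb3 with calcitriol, 1.02 for Col4a5 with calcidiol and 1.40 for Col4a5 between the compounds.

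Both compounds were given at 1 matched dose and time and differ in structure by a hydroxyl at the 1α position, present on calcitriol, which makes 1 pair to compare. Members for which calcitriol was below calcidiol by more than 0.6 on the log2 scale included Col6a2, Lamb3, Itgb3, Col5a3, Itgb4, Lama1 and Itga3. The sizes were -1.23 ± 0.27, -0.88 ± 0.25, -0.82 ± 0.20, -0.81 ± 0.21, -0.76 ± 0.23, -0.69 ± 0.20 and -0.60 ± 0.26, in that order. For Lama1, Itgb3 and Itgb4 the calcidiol array was within 0.26 of vehicle, whereas for Col5a3 and Col1a1 it differed by -0.92 and -0.78. By the scaled brightest probes, calcidiol lay between calcitriol and vehicle for each of these genes. For Col4a1, Col4a4, Col18a1, Col11a1 and Itga10 both compounds were below vehicle by similar amounts, and the difference between them was -0.03 ± 0.20, -0.07 ± 0.20, -0.03 ± 0.20, 0.02 ± 0.22 and -0.05 ± 0.23. Under median centring these near-equal pairs read higher with calcitriol, with Col4a1 at 0.19 and Col4a4 at 0.14. Lama3 and Lama5 had the highest values in favour of calcitriol, 0.55 ± 0.34 and 0.45 ± 0.20. With 1 array per compound, neither a difference nor a likeness between them could be tested.

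Genes that work with these proteins were read from lists chosen with earlier results known. Over all genes measured, 1.77% were at least 2-fold lower and 1.07% higher with calcitriol, and 50.4% were below 0. The shares with calcidiol were 0.139% lower and 0.732% higher. Of 13 measured basement membrane partners, such as perlecan and agrin, 1 was at least 2-fold lower with calcitriol and 0 higher, with a median of -0.24. That gene was Tinag, a tubule basement membrane antigen, with signals of 433, 195 and 245 and differences of -1.19 ± 0.21 and -0.93 ± 0.21. The highest was Bcam, a laminin α5 receptor, at 0.29 with calcitriol. With calcidiol 0 of 13 were 2-fold apart, and the highest was Tinagl1 at 0.24.

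Of 24 measured genes for collagen folding, processing and crosslinking, 1 was at least 2-fold lower with calcitriol and 2 higher, with 20 below 0 and a median of -0.22. The shares over all genes were 1.77% lower, 1.07% higher and 50.4% below 0. Serpinh1 encodes HSP47, the chaperone of collagen trimers in the endoplasmic reticulum, and had signals of 10764, 3443 and 10335. Calcitriol stood apart, with a difference of -1.68 ± 0.20 from vehicle and -1.51 ± 0.20 from calcidiol, whereas calcidiol was -0.17 ± 0.20 from vehicle. Adamts14, a procollagen N-proteinase, was higher with calcitriol, at 1.13 ± 0.20, with signals of 422, 946 and 546. Tgm2, a transglutaminase that crosslinks matrix proteins, was also higher, at 1.02 ± 0.20. With calcidiol these were 0.26 and 0.38, 0 of 24 were 2-fold apart, and the lowest was the lysyl oxidase-like enzyme Loxl2 at -0.44.

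Ligands of integrins other than collagens and laminins held larger differences in both directions. Of 15 measured, 3 were at least 2-fold lower and 2 higher with calcitriol, with a median of 0.00055, and 1 was lower and 1 higher with calcidiol. All genes gave 1.77% lower and 1.07% higher with calcitriol, with a median of -0.0020. With calcidiol all genes gave 0.139% lower and 0.732% higher. Spp1, osteopontin, a ligand of αvβ3, had signals of 1685, 25074 and 8938 and differences of 3.86 ± 0.20 and 2.30 ± 0.20, opposite in direction to Itgb3 with calcitriol. Postn, periostin, a ligand of αv integrins, had signals of 1647, 272 and 707 and differences of -2.63 ± 0.20 and -1.33 ± 0.20. Hormone arrays were thus above vehicle for Spp1 and below it for Postn, with calcidiol between in both. Ltbp1, which stores latent TGF-β in the matrix, differed by -1.78 ± 0.21 and -0.99 ± 0.21. A dimmer second Ltbp1 probe gave -0.56 and -0.08, so its 2-fold call rests on the brightest probe alone. Edil3, another ligand of αv integrins, differed by -1.28 ± 0.31 and -0.57 ± 0.27, and its other probes were not detected on any array. The microfibril gene Fbn1 differed by 1.58 ± 0.28 and 0.75 ± 0.31.

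By its median the cytoplasmic adhesion complex was close to level. Of 34 measured genes, 2 were at least 2-fold lower with calcitriol and 0 higher, and the median was -0.03, with 18 below 0. Over all genes 1.77% were lower, 1.07% higher and 50.4% below 0, with a median of -0.0020. Cav1, the caveolar protein that binds integrins, had signals of 95.1, 31.3 and 103 and a difference of -1.64 ± 0.25 with calcitriol and 0.00017 ± 0.22 with calcidiol. Ptk2b, the focal adhesion kinase relative PYK2, differed by -1.15 ± 0.20 and -0.35 ± 0.20. The highest was Arhgef7 at 0.43. With calcidiol 0 of 34 were 2-fold apart, between Src at -0.48 and Parvb at 0.43. Of 7 other collagen receptors 0 were 2-fold apart with either compound, and with calcitriol they ran from Mrc2, a collagen-uptake receptor, at -0.72 ± 0.21 to Sdc1 at 0.34, and with calcidiol from Adgrg1 at -0.21 to Sdc1 at 0.21.

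How far the 2-fold calls rest on processing differed between members. Col5a3 was at least 2-fold lower with calcitriol under all 10 alternatives that gave a value, with log2 differences from -1.72 to -1.30. All of these read the same Col5a3 probe, since its other probe was not detected. Col1a1 was so under 8 of 9, Col6a2 under 7 of 9, Itgb3 under 7 of 10, Lamb3 under 5 of 9 and Itga3 under 3 of 9. Their values closest to 0 were -0.85, -0.66, -0.89, -0.44 and -0.46, and none of the 6 reached or passed 0 under these alternatives. The alternative with a different background correction (normexp) left 1 member at least 2-fold lower, Col5a3. Itga3 and Itgb3 lie just past 2-fold, both at 2.03-fold, and Lama1 just short of it, at 1.93-fold.

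**Figure D4:**
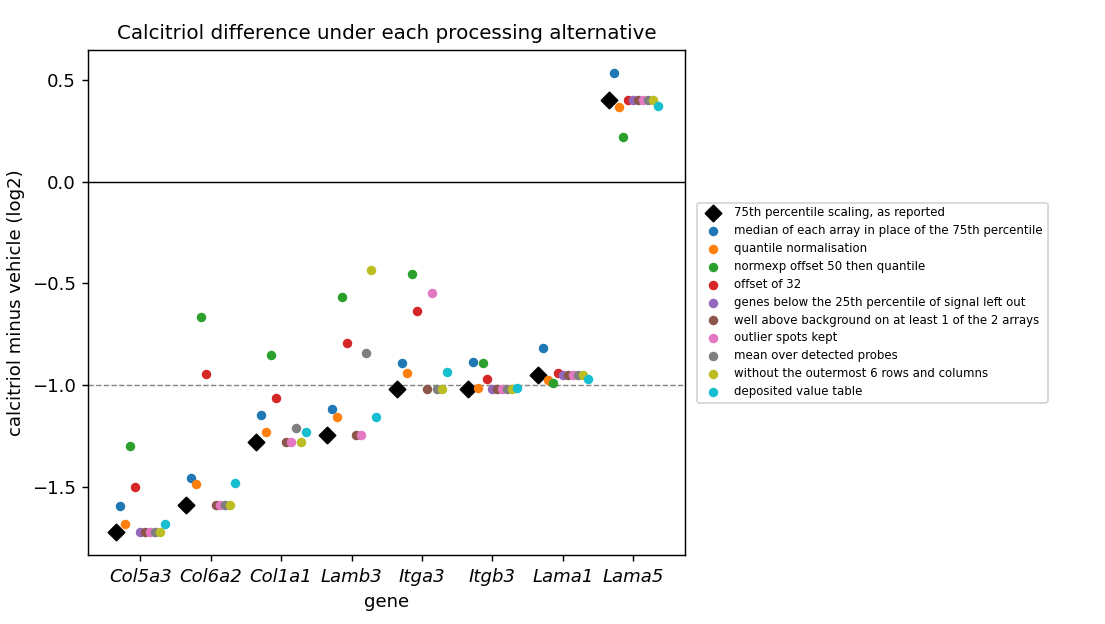
Log2 difference of calcitriol from vehicle for the 6 lower members, Lama1 and Lama5, with a diamond for the reported value and 1 dot per processing alternative that gave a value. Every dot of Col5a3 lies below the dashed 2-fold line, whereas dots of Lamb3 and Itga3 lie on both sides of it.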

How the data were processed

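Total RNA was labelled with Cy3 and hybridised to 1-colour Agilent mouse arrays, 1 per group, on 1 slide read in 1 scan per the file headers. The deposited scanner files hold linear intensity per spot. Feature Extraction 10.7.1.1 per the file headers, or 9.5.1.1 per the submitters' processing notes, had removed background and spatial trend. The headers place probes on mm9 and record no scaling between arrays. The deposited value table, with 1 intensity per probe, served as an alternative only. The tag siCT in the titles is unexplained. Each group lies at its own slide position, so position and group cannot be told apart.

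Of 62976 spots per array, 59305 were not controls. Control and outlier-marked spots were left out, which removed 1489 of 56605 probes. Saturated spots numbered 0. The 75th percentile of each array was subtracted on the log2 scale, spots of a probe were averaged, and the brightest probe stood for its gene. A difference required a probe well above background on both arrays. Otherwise a bound compared the bright array with the detection limit of the dim one (its lowest detected signal, or the probe's own value where higher). Differences were described by a 2-fold threshold. The number of arrays limits the precision. The code that counts genes past the threshold was checked on simulated data with known answers, which is no test of the real counts.

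The members, gene lists and naming rule (members 2-fold apart, the extremes and brightest of each class, their partners, undetected members, and 2-fold apart or extreme genes of other lists) were chosen with earlier results of these data known. Further detected members were added to each class. Some items in the counts are not reported here by name. Leaving out the outermost 6 rows and columns had likewise been chosen with results known. The other alternatives were median scaling, quantile scaling, normexp with an offset of 50 followed by quantile scaling, and an offset of 32. Further ones were filters on dim probes, outlier spots kept, the mean over probes, and thresholds of 1.5-fold and 3-fold. Python 3.11.15 with numpy 2.4.6, pandas 2.3.3 and matplotlib 3.10.9, and R 4.3.3 with limma 3.58.1, were used. Gene names are those of the array design, and promoters are from RefSeq on GRCm38.p6.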

Additional observations from a re-analysis of the deposited data

How the results depend on the processing

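The count of members at least 2-fold lower with calcitriol was 6 as reported and between 4 and 7 under median and quantile scaling, other probe and outlier rules, the array edge left out and the value table. It was 1 with normexp, 2 with an offset of 32, 2 above the 25th percentile of signal, 10 at 1.5-fold (with 1 higher, Itgb6) and 2 at 3-fold. With calcidiol it was 0, except 2 at 1.5-fold. Between the compounds it was 1 as reported, 0 with normexp, the offset of 32, the 25th percentile or 3-fold, 2 where detection on 1 array sufficed or outlier spots were kept, and 8 at 1.5-fold. Median centring moved the medians between the compounds to 0.12 over all members, -0.084 for fibrillar collagens, 0.13 for basement membrane genes, 0.14 for other collagens and 0.13 for integrins. Medians of other collagens were 0.0521 with calcidiol under normexp, 0.37 with calcitriol above the 25th percentile, -0.16 with calcitriol where detection on 1 array sufficed, and -0.49, -0.30 and -0.35 (calcitriol, calcidiol and direct) with outlier spots kept. The fibrillar median with calcitriol was -1.13 above the 25th percentile and -1.28 without the array edge, in both cases over fewer chains. Median centring moved all genes of a comparison by the same amount. The rules on detection, outlier spots and dim signal changed which members were counted, to 42, 41 and 26 in the calcitriol comparison, against 38 as reported. What else contributed to the shifts was not tested. The remaining 137 medians moved by less than the scanner error. Of the single-gene values under alternatives, 648 kept a 2-fold call or, where none was made, moved by less than their scanner error. Values that kept a call were not held to that error, and Col5a3 with calcitriol ran from -1.72 to -1.30. Of the rest, 39 without a call moved further and 18 lost a 2-fold call. Signals near background limit Itgb6, Itgb8, Lama3 and Col26a1. No paired analysis was possible because each group has 1 array.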
